A study of Mus musculus with 8 samples.

Results

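The genes described here encode the nuclear subunits of oxidative phosphorylation, measured in hematopoietic stem cells (HSCs) of young and old mice. Members were the rows of the deposited gene table whose symbol begins with Nduf followed by a, b, c, s or v, with Cox4 to Cox8, with Uqcr or with Atp5, together with Sdha to Sdhd, Cyc1 and Cycs. This rule found 94 of 38172 rows, and no row joined a member with another symbol. Complex I had 36 members, complex II 4, complex III 9, complex IV 19 and complex V 15, and cytochrome c had 1. The other 10 rows carry a matching name but do not encode a subunit of the enzymes. They are the complex I assembly factors Ndufaf1 to Ndufaf4, Cox7a2l, Cox4nb, Atp5s, Atp5sl, Atp5l2 and the pseudogene Atp5l-ps1. Ndufa4 and its relative Ndufa4l2 were placed with complex IV, where the Ndufa4 protein is found.

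Oxidative phosphorylation takes place in the inner mitochondrial membrane. Complexes I to IV pass electrons from NADH and succinate through ubiquinone and cytochrome c to oxygen and, except for complex II, pump protons, and complex V, the ATP synthase, uses the returning protons to make ATP. Most subunits are encoded in the nucleus and a few in the mitochondrial genome, so the complexes are assembled from both gene sets. HSCs of the adult marrow are largely quiescent and are known for relying heavily on glycolysis, while their mitochondria remain linked to how the cells leave quiescence and differentiate.

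Polyadenylated RNA was sequenced from HSCs that had been freshly sorted from the bone marrow of wild-type C57BL/6 mice, at 4 months of age for the young group and at 24 months for the old group. The sort took cells of the side population that were Kit+, Sca-1+, lineage-negative and CD150+. The labels name no transgene and no treatment of the mice. Each age had 2 biological replicates, numbered 13 and 14 in both groups, and each replicate was sequenced as 2 technical libraries, which were averaged here. Whether a replicate came from 1 mouse or from several is not stated, so the p-values below measure only the spread between these samples.

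The 8 libraries had an estimated 22.3 M to 66.5 M reads, and their deposited values summed to between 40.7 M and 44.2 M. These values are reads that were multiplied by a single factor per library and rounded, and they are called scaled values below. FPKM (fragments per kilobase of gene and per unit of depth, as deposited) is the same value corrected for gene length, and it alone is used to compare levels between genes. Of the genes of the sort, Kit lay between 213 and 248 FPKM in the 4 replicates. Ly6a (Sca-1) was at 63.6 and 62.5 FPKM in young 13 and 14 and at 85.4 and 135 FPKM in old 13 and 14. Slamf1 (CD150) was at 11.9, 12.9, 23.7 and 23.0 FPKM in the same order. Abcg2, the transporter behind the side population, lay between 36.5 and 53.7 FPKM. In each of these genes both old replicates lay above both young ones, as in 24.7% of all genes tested. Cd34 went the other way, at 102, 111, 48.8 and 63.1 FPKM, as did Flt3, at 12.1, 12.1, 3.6 and 4.42 FPKM. The part of these differences in the comparisons below was not tested. Markers of other blood cells were present too, and their sums are given beside the result they move with.

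Of the 94 members, 87 had 2 or more replicates with a scaled value of 10 or higher and were tested. The 7 that did not were Cox6a2, Cox7b2, Cox8b, Cox8c, Ndufa4l2, Atp5l2 and Atp5l-ps1. The members lie on 19 chromosomes.

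Promoters of respiratory subunits are known for sites of the nuclear respiratory factor NRF1, of ETS-family factors such as GABP (also called NRF2) and of YY1. RefSeq promoter windows of GRCm38.p6, reaching from 250 bases before to 50 bases after a gene's start, were found for 66 of the 79 tested subunits and cytochrome c, 71 windows in all. Exact matches were counted on both strands. The NRF1 motif (GCGC, any base, T, then GCGC again) was in 18 of the 71 windows (25.4%), against 4.63% of all 32544 promoter windows of the same length. The ETS core CCGGAAG was in 16 windows (22.5%, against 8.91% of all windows) and the YY1 motif (AAGATGG followed by CGG) in 5 (7.04%, against 0.854%). For more general promoter elements the shares lay closer together. The GC box GGGCGG was in 39.4% of the members' windows and 35.9% of all windows, the CCAAT box in 42.3% and 37.4%, and TATAAA in 8.45% and 13.6%. A match is a description of the letters and not a measured site, and the windows of neighbouring genes can overlap.

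The following stretches of 150 bases, from 180 to 30 bases before the RefSeq start, show these motifs for a member of each complex. They were chosen because they hold matches, which stand in capitals. Ndufa11, a membrane-arm subunit of complex I, has an NRF1 match (chr17:56717582-56717731, plus strand).
Ndufa11: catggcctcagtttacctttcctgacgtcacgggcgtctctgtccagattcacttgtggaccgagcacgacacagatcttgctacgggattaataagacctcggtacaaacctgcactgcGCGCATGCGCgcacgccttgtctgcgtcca
Sdha, the flavoprotein that oxidizes succinate in complex II, has NRF1 matches on the reverse strand at 2 places (chr13:74350271-74350420, minus strand).
Sdha: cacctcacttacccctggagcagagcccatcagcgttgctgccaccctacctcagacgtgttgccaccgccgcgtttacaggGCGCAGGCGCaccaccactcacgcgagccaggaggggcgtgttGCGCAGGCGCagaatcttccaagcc
Uqcr11, a small subunit of complex III, has an ETS core (chr10:80406852-80407001, minus strand).
Uqcr11: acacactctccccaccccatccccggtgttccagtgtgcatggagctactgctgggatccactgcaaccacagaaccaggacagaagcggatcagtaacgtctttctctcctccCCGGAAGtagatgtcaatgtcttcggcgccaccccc
Cox6a1, the widely expressed form of a complex IV subunit, has NRF1 matches at 2 places (chr5:115348989-115349138, minus strand).
Cox6a1: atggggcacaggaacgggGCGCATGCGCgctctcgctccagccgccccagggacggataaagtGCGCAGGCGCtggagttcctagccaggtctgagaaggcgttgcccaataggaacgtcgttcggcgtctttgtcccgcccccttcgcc
Atp5j, a stalk subunit of the ATP synthase, has a YY1 match and an ETS core in this window, which belongs to one of its starts (chr16:84835007-84835156, minus strand).
Atp5j: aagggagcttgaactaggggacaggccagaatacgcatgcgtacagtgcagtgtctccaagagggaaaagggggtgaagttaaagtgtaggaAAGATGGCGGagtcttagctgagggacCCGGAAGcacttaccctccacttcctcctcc

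The levels differed between the complexes and by a wide range within them. The median over the tested members of mean FPKM was 109 FPKM in complex V, 94.0 in complex IV, 69.8 in complex II, 69.6 in complex III and 47.5 in complex I. The 8 tested members that are not subunits had a median of 10.7 FPKM, near the 6.49 FPKM of all 18318 genes tested. The subunits together with cytochrome c kept their order of level between any 2 replicates, with Spearman's rho across these 79 genes between 0.983 and 0.996. Genes are not independent replicates, so this is a description.

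**Figure D1:**
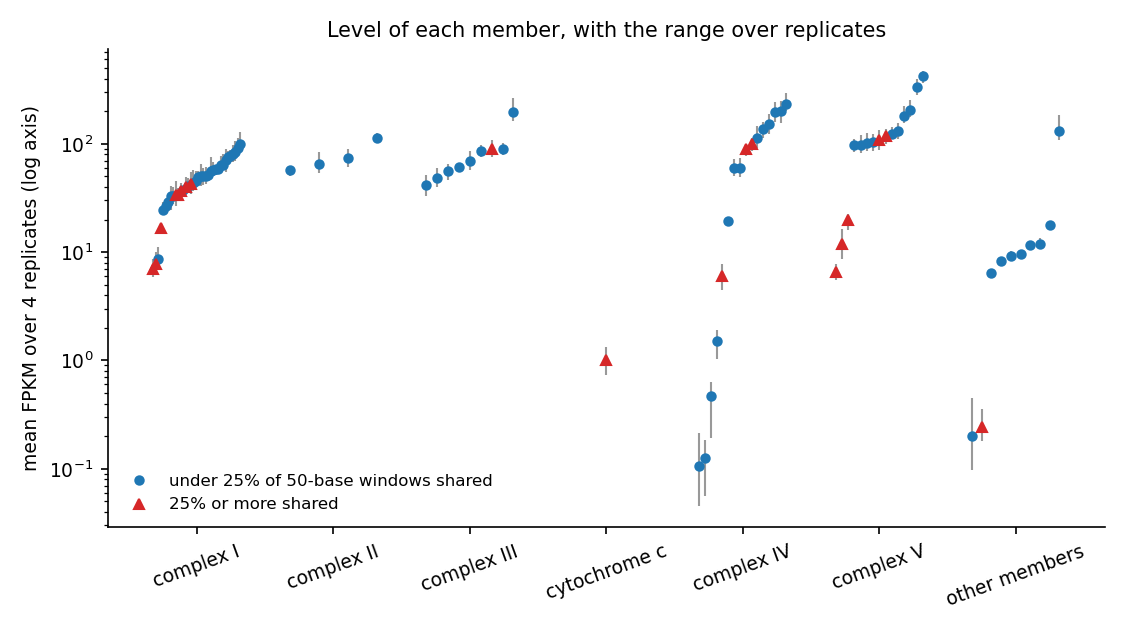
Mean FPKM of each member over the 4 biological replicates on a log axis, by complex, with vertical lines from the lowest to the highest replicate. Red triangles mark members that share at least 25% of their 50-base windows with another gene, and members under 0.05 FPKM are left out. Complex V holds both the highest member, Atp5b at 419 FPKM, and 3 members under 20 FPKM.

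Complex I, which oxidizes NADH, was led by Ndufb9, a subunit of its membrane arm. Ndufb9 (chr15:58765365-58771044 in mm9, the build of the deposited table) was at 89.4 and 99.0 FPKM in young replicates 13 and 14 and at 84.5 and 128 FPKM in old replicates 13 and 14. The lowest members were the small subunits Ndufab1 at 6.94 FPKM, which is also the mitochondrial acyl carrier protein, Ndufb4 at 7.77 FPKM and Ndufa11 at 8.67 FPKM.

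Complex II, which has no subunit of mitochondrial origin, was led by its flavoprotein. Sdha (chr13:74459703-74487688, mm9) was at 107, 114, 106 and 127 FPKM in young 13, young 14, old 13 and old 14. The iron-sulfur subunit Sdhb was at 58.5, 59.6, 50.3 and 61.5 FPKM in the same order. The membrane anchors Sdhc and Sdhd were at 58.6, 66.5, 53.2 and 83.2 FPKM and at 66.2, 80.1, 60.6 and 89.8 FPKM. In each of these genes old 13 was the lowest and old 14 the highest replicate, a pattern that recurs below.

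Complex III, which passes electrons from ubiquinol to cytochrome c, was led by the hinge protein Uqcrh (chr4:115739570-115747675, mm9), at 169 and 191 FPKM in the young replicates and at 161 and 264 FPKM in old 13 and old 14. Cyc1, the cytochrome c1 subunit, was at 65.3, 60.4, 55.5 and 64.9 FPKM. The core proteins Uqcrc1 and Uqcrc2, at 86.7 and 89.3 FPKM on average, and the Rieske iron-sulfur protein Uqcrfs1, at 48.8 FPKM, lay in the same range. Cycs, cytochrome c itself, was listed far below its partners, at 0.736, 1.34, 0.808 and 1.16 FPKM. The share of its sequence that also occurs in other genes is given below.

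Complex IV, the oxygen-reducing end of the chain, was led by Cox4i1 (chr8:123192190-123198109, mm9) at 218, 222, 202 and 296 FPKM, Ndufa4 at 178, 215, 155 and 246 FPKM and Cox8a at 187, 196, 158 and 244 FPKM. Complex V was led by the catalytic beta subunit Atp5b (chr10:127520363-127527444, mm9) at 410, 434, 364 and 470 FPKM and the alpha subunit Atp5a1 at 304, 339, 282 and 399 FPKM. The 5 subunits of its catalytic F1 head had a median of 182 FPKM and the 10 others 107 FPKM. In Cox4i1, Ndufa4, Cox8a, Atp5b and Atp5a1 old 13 was again the lowest and old 14 the highest replicate.

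Several subunits of complex IV and the c ring of complex V are encoded by families of isoforms, of which some are known from heart and skeletal muscle, testis or lung. In every family that could be compared, the widely expressed form was above the tissue-restricted one in all 4 replicates. Cox4i1 was between 122 and 194 times Cox4i2, a form induced in lung and by low oxygen, which was at 1.79 and 1.30 FPKM in the young and 1.04 and 1.91 FPKM in the old replicates. Cox6a1 was at 140, 136, 112 and 158 FPKM, while the muscle form Cox6a2 was at 0.0762, 0.213, 0.0915 and 0.0457 FPKM. Cox7b was at 55.4, 60, 50.1 and 71.7 FPKM and Cox7b2 at 0.0556, 0.0926, 0.167 and 0.185 FPKM. Cox8b, a muscle form, had scaled values of 1.0 in young 13 and 0.5 in old 14 and was listed at 0 in the other two, and the testis form Cox8c was listed at 0 in all 4 replicates. Ndufa4l2 had a scaled value of 0.5 in 3 replicates and was listed at 0 in old 14.

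Cox6b2, known from testis, was the exception among the second isoforms. It was at 19.2, 20.4, 17.5 and 20.2 FPKM against 138, 155, 122 and 188 FPKM for Cox6b1, and the ratio of Cox6b1 to Cox6b2 was 7.20, 7.59, 6.97 and 9.28. Both young ratios lay between the old ones. Of the 3 genes that encode an identical mature c subunit, Atp5g3 was highest at 190, 207, 177 and 255 FPKM. Atp5g1 followed at 19.3, 21.1, 16 and 22.4 FPKM, and Atp5g2 was at 5.76, 7.18, 5.58 and 7.83 FPKM. The ratio of Atp5g3 to Atp5g1 was 9.83 and 9.79 in the young and 11 and 11.4 in the old replicates, so the old ratios lay above the young without overlap. The ratio of Cox7a2l to Cox7a2, at 1.94 and 1.90 in the young and 2.34 and 2.53 in the old, did not overlap either. That of Atp5g3 to Atp5g2 overlapped. These comparisons have 2 values a group and no test, and single genes did not overlap between the ages in 42.1% of all genes tested. Atp5g1 is also among the genes whose sequence is shared with others, as given below. Cox7a2 was at 55.6, 63.0, 49.3 and 73.4 FPKM, 77.7 to 326 times the muscle form Cox7a1.

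**Figure D2:**
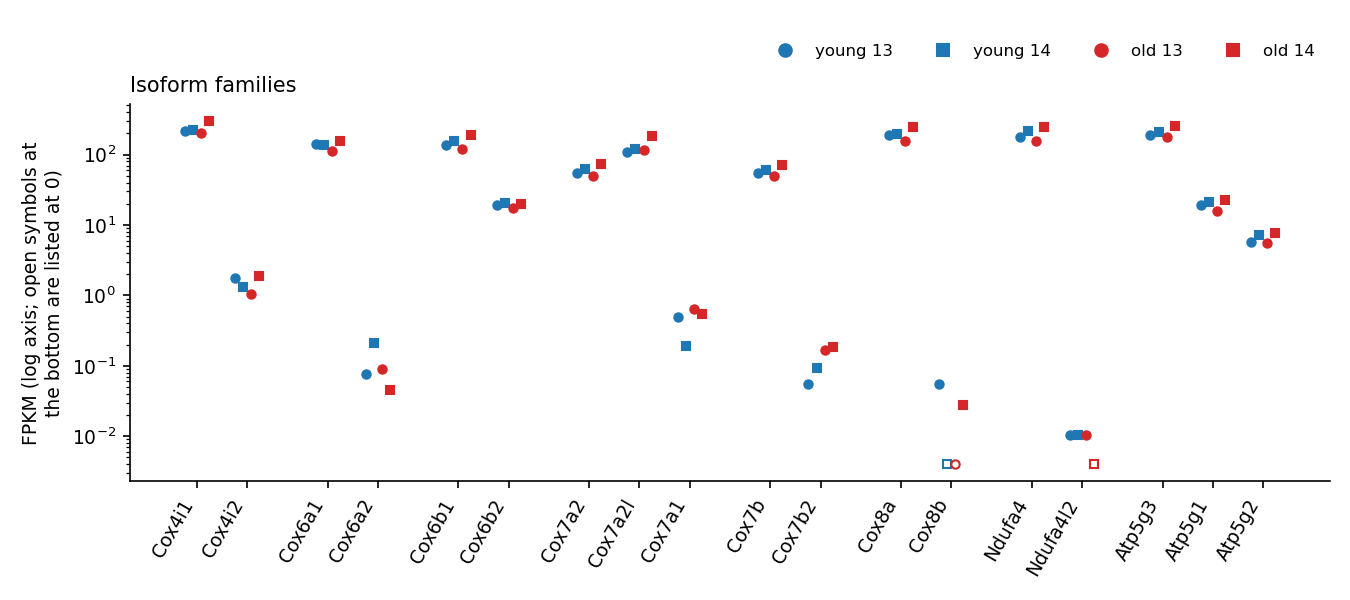
FPKM of the isoform families in each replicate on a log axis, young in blue and old in red, with circles for replicate 13 and squares for replicate 14. Open symbols are listed at 0. The first gene of each family lies at or above 49.3 FPKM in all 4 replicates, and Cox6b2 is the highest of the tissue-restricted forms of complex IV.

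Low listed levels went partly with sequence that other genes share. For 78 tested subunits, cytochrome c included, the share of 50-base windows of 1 transcript that also occur in another gene of the GENCODE M21 annotation was computed, in either orientation. An annotated gene that overlaps the subunit at the same place would count here too, and was not told apart from a copy elsewhere. The 33 genes that share no window had a median of 57.5 FPKM, and the 18 that share at least 25% had a median of 33.8 FPKM. The ranges overlapped, from 0.47 FPKM upward for the first and from 1.01 to 118 FPKM for the second, and across the 78 genes Pearson's r of the share with log2 FPKM was −0.31 and Spearman's rho −0.14. Of the 12 genes under 20 FPKM, 8 share at least 25%. Atp5g2 shares 100% of its windows, Atp5l 84.8%, Atp5g1 66.0%, Cox7c 53.0%, Ndufs5 41.2%, Ndufb4 37.0%, Ndufab1 31.2% and Cycs 28.5%. Yet Atp5h and Atp5o share 50.5% and 50.3% and were at 109 and 118 FPKM. How reads that match several genes were counted is not given in the sources used here, so the levels of these genes are uncertain, and the part of shared sequence in them was not tested.

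With age, no member differed beyond the spread between replicates. In limma, with adjustment over all 18318 genes tested, 0 of the 87 members had an adjusted p under 0.05 in either direction, where 2.55% of all genes did (2.01% higher and 0.54% lower in old). At an unadjusted p under 0.05 the count was also 0, against 14.0% of all genes. The smallest adjusted p among the members was 0.587. The median log2 fold change, old over young, was 0.05 over the members and 0.04 over all genes tested. The fitted change was above 0 in 61 members and below 0 in 26, against 56.5% of all genes above 0. With the libraries rescaled by the median ratio, the median was −0.00 and 42 of 86 members were above 0, and with equal library totals it was 0.01 and 46 of 86. In a bulk sample, a lower share of a cell type and less RNA per cell cannot be told apart, and this holds for every comparison here.

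The intervals show what sizes of change these 4 samples allow. All 87 of the 95% intervals included 0, 85 lay inside a 2-fold change in either direction (−1 to 1 on the log2 scale), and they reached from 0.32 to 1.32 to either side of the estimate, with a median of 0.47. The fitted change was under 0.2 in absolute log2 value in 83 members. By complex, the median log2 fold change was 0.08 in complex I, 0.04 in complex II, 0.02 in complex III, 0.01 in complex IV and 0.04 in complex V. A p above the threshold does not show that the ages have equal levels.

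**Figure D3:**
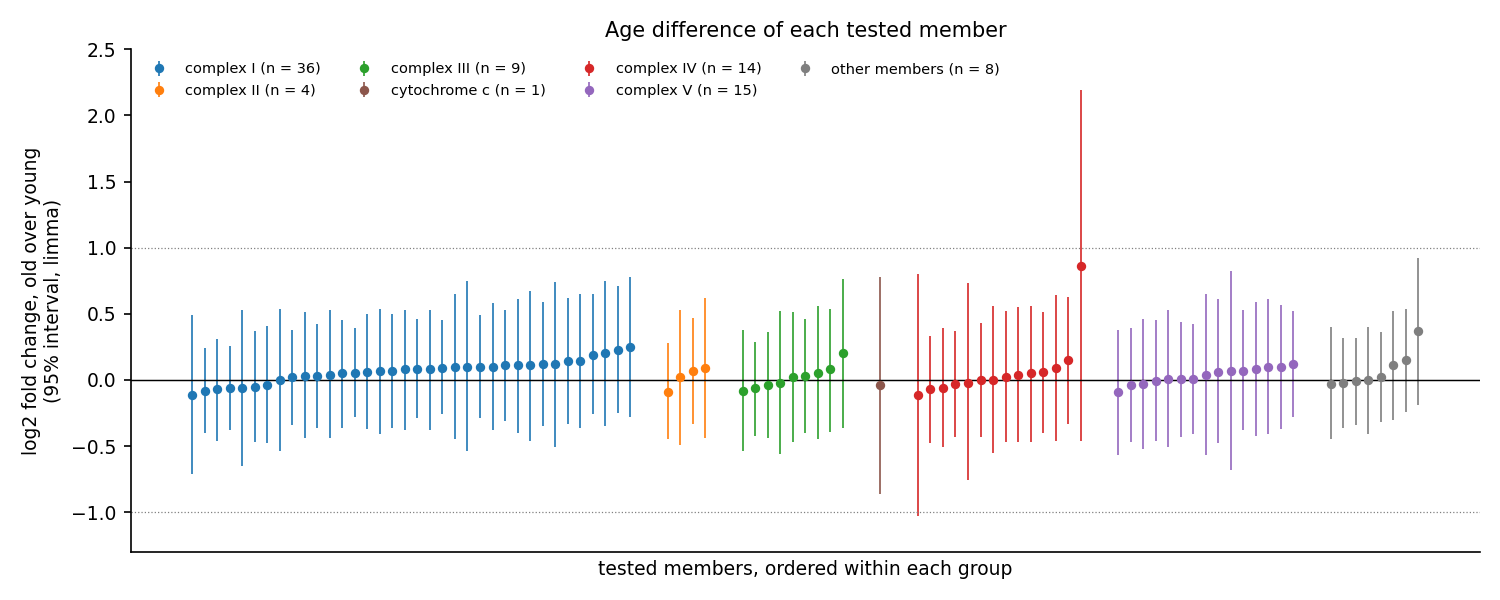
Log2 fold change of each tested member, old over young, with its 95% interval from limma, ordered within each complex. The dotted lines mark a 2-fold change in either direction. All 87 intervals cross 0, and those of Cox4i2 and Cox7a1, genes of low value, reach past the dotted lines.

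The largest fitted changes belonged to genes of low value or outside the enzymes. Cox7a1 (chr7:30969190-30971049, mm9) had scaled values of 9.0 and 3.5 in the young and 11.5 and 10 in the old replicates, and its fitted log2 change was 0.86 ± 0.56 (SE; adjusted p = 0.598, limma). The old replicates lay above the young ones, with few reads behind each value. Cox7a2l (chr17:83901257-83913673, mm9), known as a factor that joins complexes III and IV into supercomplexes, was at 108 and 120 FPKM in the young and 116 and 186 FPKM in the old replicates. Its fitted log2 change was 0.37 ± 0.23 (SE; adjusted p = 0.587, limma), and old 13 lay between the young replicates. In the authors' deposited table Cox7a2l was the only one of 93 members with an FDR that is marked as changed, as higher, with a log2 fold change of 0.37 and an FDR of 0.0075, where 6.90% of all rows are marked, 3.51% as higher.

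The other members with the largest fitted changes overlapped between the ages, with 1 exception. Ndufc2, a complex I membrane subunit, was at 47.3, 54.6, 48.7 and 75.2 FPKM (log2 fold change 0.25, SE 0.22), Ndufa11 at 8.45, 7.39, 7.78 and 11.1 FPKM (0.23, SE 0.20) and Ndufc1 at 37.4, 42.0, 36.3 and 57.0 FPKM (0.20, SE 0.23). Atp5j, which had the smallest p in complex V, was at 114, 119, 110 and 144 FPKM (0.12, SE 0.17). In the other direction Ndufab1 was at 8.58, 5.92, 7.38 and 5.89 FPKM (−0.11, SE 0.25) and Cox4i2 had a log2 fold change of −0.11 with SE 0.39. Atp5g1 and Sdhb, whose levels are given above, were both at −0.09, with SE 0.20 and 0.15. Ndufa10, a complex I subunit (chr1:94336296-94370335, mm9), was at 52.4 and 53.8 FPKM in the young and 48.8 and 51.9 FPKM in the old replicates (−0.08, SE 0.13), so its old replicates lay below the young without overlap. Members with both old replicates above both young ones were 2, Cox7a1 and Atp5s, where 24.7% of all genes were so arranged, and Ndufa10 was the only member with both below, against 17.4% of all genes.

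The members differed more between the 2 old replicates than between the ages. In 83 of 87 members old 14 was above old 13, against 50.6% of all genes tested. The deposited values summed to 40.8 M in old 13 and 44.2 M in old 14. With equal library totals old 14 was above old 13 in 78 of 87 members, with 7284 of the 18318 genes. In 69 members (79.3%) old 13 was below both young replicates and old 14 above both, against 10.6% of all genes tested and 19.4% of the 7269 genes with a mean of at least 10 FPKM. The members' median log2 ratio of old 14 over old 13 was 0.50 (1.41-fold), against 0.01 over all genes tested and 0.15 over those with at least 10 FPKM. These medians are on the deposited scale, and with the median-ratio rescaling that of the members was again 0.50. Relative to the young mean, old 13 had a median of −0.18 and old 14 one of 0.31 on the log2 scale, and the replicates' SD of the members' median log2 level was 0.25. Without old 13, the members' median log2 fold change with age was 0.31 and 80 of 86 were above 0, and without old 14 it was −0.19 and 4 of 86 were above 0. Without either of them no gene of the whole table had an adjusted p under 0.05. At an unadjusted p under 0.05 there were 20 members without old 13, beside 3664 of 17822 genes, and 2 without old 14, beside 1881 of 17953 genes. The young replicates were closer together, with a median log2 ratio of 14 over 13 of 0.07 and 58 members higher in young 14, against 41.9% of all genes. Technical libraries of the same replicate differed by a median absolute log2 value of 0.030 to 0.048 over the members.

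This arrangement ran through every complex. It was found in 28 of 36 tested members of complex I, 4 of 4 of complex II, 8 of 9 of complex III, 12 of 14 of complex IV and 15 of 15 of complex V, but in 2 of the 8 tested members that are not subunits. Rescaling by the median ratio left the total at 69, and equal library totals left 62 of 87, with 1245 of the 18318 genes. The members' summed share of the deposited values was 0.734% and 0.761% in young 13 and 14, 0.672% in old 13 and 0.851% in old 14.

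**Figure D4:**
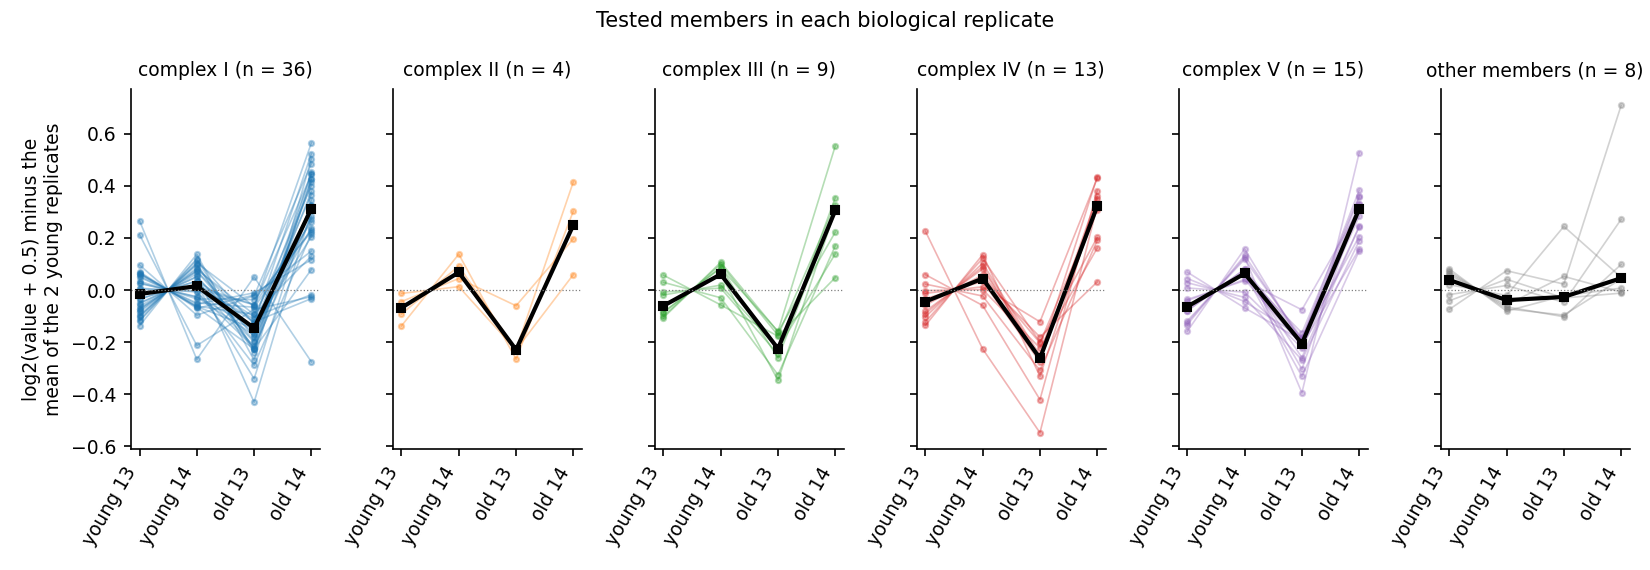
Log2(value + 0.5) of each tested member in the 4 replicates, minus its mean over the 2 young replicates, by complex, with the median of each group as black squares. Cox7a1 is left out for its low values, and Cycs, which belongs to none of the complexes, has no panel. In each of the 5 complexes the median is below 0 in old 13 and above 0 in old 14, while the other members stay nearer to 0.

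The size of the gap between the old replicates varied among the subunits, at low and at high levels. Atp5l, a membrane subunit of the ATP synthase, was at 10.3 and 12.3 FPKM in the young and 8.57 and 16.3 FPKM in the old replicates, a log2 ratio of old 14 over old 13 of 0.92. The ratio was 0.87 for Cox4i2 and 0.80 for Cox7c, but 0.21 for Cox6b2 and 0.17 for Ndufs5, all of them subunits under 20 FPKM. It was 0.77 for Ndufa12, and among members of the highest levels it was 0.71 for Uqcrh, 0.67 for Ndufa4 and 0.63 for Cox8a. Atp5b, the highest of all, had 0.37.

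The 18 tested members outside the arrangement included 8 of complex I. Ndufs1, the largest core subunit, was at 29.1 and 30.6 FPKM in the young and 27.8 and 29.5 FPKM in the old replicates. Ndufs7, which carries the last iron-sulfur cluster before ubiquinone, was at 67.2, 50, 55 and 56.9 FPKM. The others were Ndufa10, Ndufa11, Ndufab1, Ndufc2, Ndufs5 and Ndufv3 of complex I, Cyc1, Cox6b2, Cox7a1, Cycs, and 6 members that are not subunits. Old 14 was below old 13 in 4 members, with log2 ratios of −0.33 for Ndufab1, −0.20 for Atp5s, −0.19 for Cox7a1 and −0.06 for Atp5sl.

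Gene length moved with the gap between the old replicates. Among genes with at least 10 FPKM, cut into eighths by length (the ratio of scaled value to FPKM), the median log2 ratio of old 14 over old 13 ran from 0.36 in the shortest eighth to −0.12 in the longest. The share of genes with old 13 below and old 14 above both young replicates ran from 38.6% to 4.4%. Most members are short. All 87 tested members were placed in these eighths whatever their FPKM, so unlike the genes they were not limited by level. Of these members, 57 were in the shortest eighth, with a median of 0.51 and 51 so arranged. The second held 15, with 0.41 and 10, and the third 7, with 0.37 and 6. The members' medians were thus above those of the genes with at least 10 FPKM in the same eighths, 0.36, 0.24 and 0.19. The part of length in the members' gap was not tested.

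**Figure D5:**
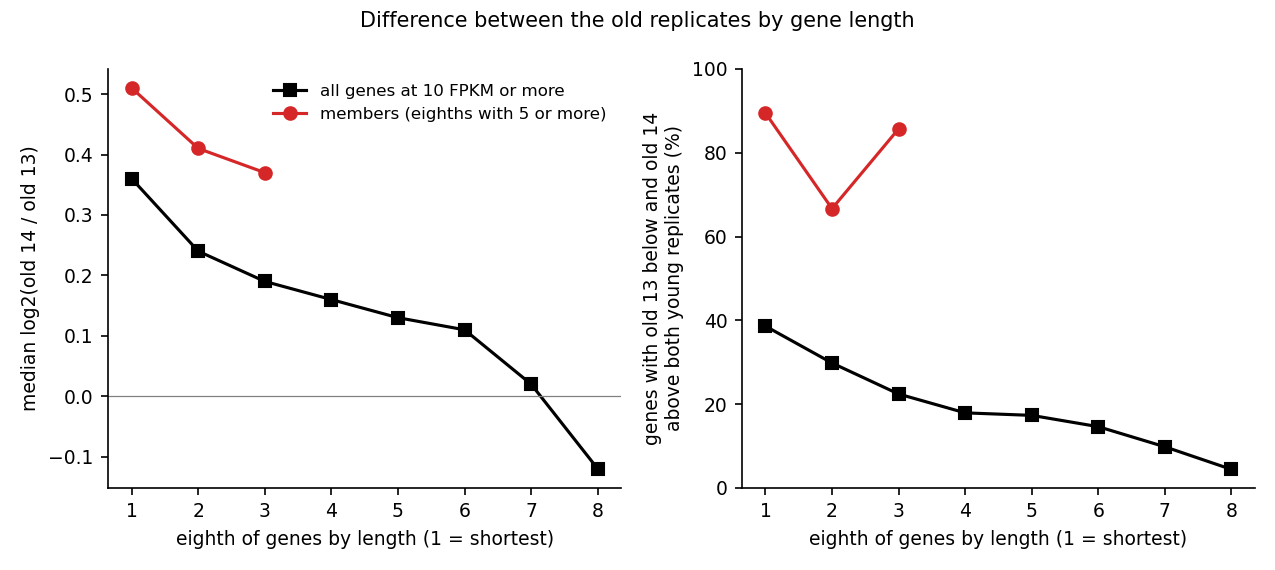
Genes with a mean of at least 10 FPKM in eighths by length, shortest first, with the median log2 ratio of old 14 over old 13 on the left and the percentage of genes with old 13 below and old 14 above both young replicates on the right. Black squares are all genes with at least 10 FPKM. Red circles are the tested members, whatever their FPKM, for eighths with at least 5 members. Both measures decline with length over all genes, and the red circles lie above the black squares in each of the 3 shortest eighths.

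Markers of other cells moved with the replicates as well. The summed scaled value of 13 neutrophil markers was 14551 and 55278.5 in young 13 and 14 and 13907.5 and 28444.5 in old 13 and 14, and all 13 were higher in old 14 than in old 13. For 6 monocyte and macrophage markers it was 981.5, 7394, 1468.5 and 4568.5, and all 6 were higher in old 14. The highest sum of both lists was in young 14. For 8 T and NK cell markers the sums were 1744.5, 2773, 3242 and 5069, highest in old 14. Of the 4 of these that were tested, 3 were higher in old 14 than in old 13 and 1 had an adjusted p under 0.05 with age, as higher (limma). For 7 megakaryocyte and platelet markers the sums were 41290, 44449.5, 46240 and 49772, also highest in old 14. The sums were 8018.5, 7343, 3749.5 and 4004.5 for 9 erythroid markers, 1152, 1195, 1273 and 1255 for 7 B cell markers and 9436, 10239, 6111 and 5804 for 8 stromal and endothelial markers. The sums for the 11 HSC markers, which include Cd34, Flt3 and Cd48, were 143997.5, 141543, 147082.5 and 166535.5. With age, 5 of the 9 erythroid and 2 of the 8 stromal and endothelial markers had an adjusted p under 0.05, as lower (limma). Of the HSC markers 2 were called higher and 2 lower. The neutrophil, monocyte, megakaryocyte and B cell lists had no call. Over all genes tested the share called was 2.55%. None of the measured markers was at 0 in every replicate. The part of other cells in the gap between the old replicates was not tested.

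Other large protein complexes of the cell showed a gap in the same direction. Over 78 tested cytosolic ribosomal protein genes, the median log2 ratio of old 14 over old 13 was 0.64, and 45 (57.7%) had old 13 below and old 14 above both young replicates. Over 76 mitochondrial ribosomal protein genes it was 0.28, with 41 (53.9%) so arranged, and over 38 proteasome genes 0.34, with 27 (71.1%). This arrangement was found in 10.6% of all genes tested and 19.4% of those with at least 10 FPKM. The gap was therefore shared with these gene groups, and no difference from them was tested. None of these genes had an adjusted p under 0.05 with age (limma), against 2.55% of all genes. At an unadjusted p under 0.05 there was 1 cytosolic ribosomal protein gene and none of the others, against 14.0% of all genes. The fitted change with age was above 0 in 76 of the 78 cytosolic ribosomal protein genes, against 56.5% of all genes. Relative to the young mean, their median log2 level was −0.10 in old 13 and 0.57 in old 14. Both old replicates were above both young ones in 5 of the 78, against 24.7% of all genes. Over the 78 the median log2 fold change with age was 0.24 and the smallest adjusted p 0.0501 (limma). The median was −0.00 for the mitochondrial ribosomal and 0.02 for the proteasome genes.

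Members with and without the motifs in their promoters had nearly the same median gap between the old replicates and median change with age. The median level was higher in those with a match, a difference that was not tested. The 32 subunits with an NRF1, ETS core or YY1 match had a median of 64.1 FPKM and a median log2 ratio of old 14 over old 13 of 0.51. The 34 without any had 51.2 FPKM and 0.50. With age the medians were 0.05 and 0.04.

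The genes that serve the complexes were described from 7 lists, and 0 of their tested genes had an adjusted p under 0.05 with age in either direction (limma), against 2.55% of all genes. At an unadjusted p under 0.05 there was 1, Sqrdl, against 14.0% of all genes. Of 35 assembly factors, the fitted change was above 0 in 24, and its median was 0.07. Sdhaf1, which helps to insert iron-sulfur clusters into Sdhb, was at 11.2 and 11.6 FPKM in the young and 13.1 and 15.6 FPKM in the old replicates (log2 fold change 0.32, SE 0.17, adjusted p = 0.50, limma). Tmem126b, needed for the membrane arm of complex I, was at 9.67, 9.45, 10.4 and 13.1 FPKM (0.29, SE 0.19). In both genes the old replicates lay above the young without overlap, as in 8 of the 35, and 2 of the 35 lay below, where 24.7% and 17.4% of all genes did.

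The fitted change was below 0 in 5 of 9 nuclear regulators, and its median was −0.07. Ppargc1b, a coactivator of mitochondrial gene programs, was at 3.06 and 2.42 FPKM in the young and 2.27 and 1.64 FPKM in the old replicates (log2 fold change −0.50, SE 0.23, adjusted p = 0.42, limma). Nrf1, the factor whose motif is shown above, was at 9.48 and 9.73 FPKM in the young and 7.91 and 8.10 FPKM in the old replicates (−0.26, SE 0.13, adjusted p = 0.468, limma). For both genes the old replicates lay below the young without overlap, as in 3 of the 9 regulators, against 17.4% of all genes. Both were named for having the smallest p of their list. In 1 of the 9 regulators old 13 was below and old 14 above both young replicates, unlike in most subunits.

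The 12 genes of mitochondrial genome maintenance had a median of 0.03. Mterf, a mitochondrial transcription terminator, was at 3.0, 2.53, 4.03 and 3.43 FPKM (0.43, SE 0.22), and Polg, the mitochondrial DNA polymerase, at 17.7, 14.9, 14.9 and 13.1 FPKM (−0.22, SE 0.16). Of the subunits encoded in the mitochondrial genome only mt-Nd4, of complex I, was matched by symbol. It was at 498 and 581 FPKM in the young and 555 and 599 FPKM in the old replicates, and its fitted log2 change was 0.10 (SE 0.20, adjusted p = 0.89, limma). Its log2 ratio of old 14 over old 13 was 0.11, and old 13 lay between the young replicates, unlike in most nuclear subunits.

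Of 11 genes of ATP export and coupling 8 were tested, with a median of −0.01. Ucp2, an uncoupling-protein relative known from blood cells, was at 64.2 and 71.3 FPKM in the young and 47.7 and 57.7 FPKM in the old replicates (log2 fold change −0.37, SE 0.17, adjusted p = 0.409, limma). Both old replicates lay below the young, as in 1 of the 8, against 17.4% of all genes. The ADP/ATP carrier Slc25a4 was at 87.4, 89.0, 87.5 and 119 FPKM (0.21, SE 0.18). Of 18 genes of ubiquinone synthesis and other electron donors, the median was 0.03. Sqrdl, which passes electrons from hydrogen sulfide to ubiquinone, was at 9.68 and 10.2 FPKM in the young and 12.0 and 16.7 FPKM in the old replicates (0.51, SE 0.19, adjusted p = 0.292, limma). Both old replicates lay above the young, as in 2 of the 18, against 24.7% of all genes, and 2 of the 18 lay below. Sqrdl and Ucp2 were named for having the smallest p of their lists. Coq3, a methyltransferase of ubiquinone synthesis, was at 4.67, 4.36, 4.58 and 6.33 FPKM (0.25, SE 0.20).

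The name rule misses some subunits that carried other symbols in the deposited table. Usmg5, a small membrane subunit of the ATP synthase, was at 15.9 and 25.2 FPKM in the young and 14.9 and 31.3 FPKM in the old replicates, with old 13 lowest and old 14 highest (log2 fold change 0.11, SE 0.38). The ATP synthase subunit listed as 2010107E04Rik was at 113, 147, 132 and 215 FPKM (0.39, SE 0.25), and there old 13 lay between the young replicates.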

How the data were processed

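Sorted HSC RNA from 2 biological replicates at 4 months and 2 at 24 months was sequenced as 8 libraries after polyA selection, per the labels' protocols. The submitters' processing notes list mm9 as the build and DESeq as a tool, with neither its version nor its role. Not given in the sources used here are aligner, counter, read length and the treatment of reads that match several genes. The deposited values named like counts are a score: reads the authors multiplied by 1 factor per library (0.617 to 1.839, estimated from skipped or doubled whole numbers) and rounded. The deposited FPKM is that score times 1 constant per gene. The deposited table of the series also gives the authors' log2 fold changes and FDR (adjusted p-value), whose replicates are not stated.

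Because the values are not counts, no count model was used. The mean of each technical pair was taken, and limma 3.58.1 under R 4.3.3 was run on log2(value + 0.5) of the 4 replicates, with a single term for age, a trended empirical Bayes prior and two-sided p-values. A gene entered if 2 or more replicates had a value of 10 or higher (18318 of 38172), and the Benjamini-Hochberg adjustment ran over all of these. Fold changes are on the log2(value + 0.5) scale, which understates changes of low genes. The fit was tested on simulated data.

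The members, lists and tests were chosen with earlier results of these data known, so no list was tested as a set. With values in every replicate were named the member with the highest FPKM and the one with the smallest p in each group, the 5 largest fitted changes each way, the isoform families, complex II, Cyc1, Cycs and the 2 smallest p of each pathway list. Other members named, and the promoters shown, were chosen after their values or matches were seen. Shared windows used 1 principal transcript per gene in GENCODE M21. The 14 alternatives were 2 pseudocounts, 2 low-value filters, 2 rescalings, limma-voom, either technical library alone, a replicate block and leaving out each replicate.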

Additional observations from a re-analysis of the deposited data

How the results depend on the processing

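No member had an adjusted p under 0.05 in limma under any of the 14 alternatives, and the smallest adjusted p they gave was 0.0936, with the replicate block. The members' median log2 fold change moved with the old replicates: leaving out each replicate in turn gave values from −0.19 (without old 14) to 0.31 (without old 13), where 0 members passed and 20 had an unadjusted p under 0.05. Rescaling by the median ratio turned the fitted sign of 18 of 86 members and equal library totals that of 14, all without a call. Over all genes, 368 were called higher and 99 lower. These counts became 0 and 0 with no filter on low values (2943 at an unadjusted p under 0.05), 237 and 65 with a mean of at least 1 FPKM, and 242 and 51 with the lower-numbered technical library. The higher-numbered library gave 52 lower, and leaving out each replicate gave 0 to 201 higher and 0 to 62 lower, both 0 without old 13 or without old 14 (3664 and 1881 at an unadjusted p under 0.05). With the replicate block they were 1698 and 1068, and Ppargc1b (−0.50, adjusted p = 0.0354) and Sqrdl (0.51, adjusted p = 0.0176) passed. The numbers 13 and 14 are not stated to pair the samples; the log2 ratio of 14 over 13 correlated between the ages with r = 0.54 across 18318 genes, which are not independent replicates, over only 2 pairs. The causes of these changes were not tested. With 2 replicates an age, the reach of the members' 95% intervals (median 0.47 to either side, log2) limits what could be called, and reads shared between related genes limit the levels.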
